A study of Homo sapiens with 24 samples.

Results

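The comparison described here set SW620 cells sorted as ALDHbr against SW620 cells sorted as ALDHneg, both under the DMSO vehicle, and was made of 6 of the 24 RNA libraries of the series, 3 for each population. SW620 is an established colon cancer cell line. Cells were grown attached for 30 h, sorted after the ALDEFLUOR assay, and their total RNA was sequenced, in 3 independent experiments. The other 18 libraries were the same 2 populations of SW620 under Nifuroxazide (NIF), a nitrofuran antibiotic, for 30 h, and both populations of SUM159, a breast cancer line, under DMSO or NIF. Both populations are sorted fractions of a single line.

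Aldehyde dehydrogenases oxidize aldehydes to carboxylic acids, and the ALDH1A enzymes make retinoic acid from retinal. The ALDEFLUOR reagent enters living cells as an uncharged aldehyde and is held inside as a charged fluorescent product once these enzymes have oxidized it, so that the brightest cells are those with the most enzyme activity. The gate is set on cells treated with the ALDH inhibitor DEAB. In the colon, ALDH1A1 and other ALDH isoforms mark cells of the crypt base, and the bright fraction of colon tumors is used as a working definition of cancer stem cells. The gate was set on enzyme activity and not on RNA, so that no RNA value below chose the cells.

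The total count per library ran from 32719582 to 41573418 over the 6 libraries. The colon epithelial markers (EPCAM, CDH1, CDX1, CDX2, VIL1, CDH17, LGALS4, KRT8, KRT18, KRT20) summed to between 13620 and 15830 counts per 1000000 counts of the library (CPM) in ALDHbr and between 14030 and 14780 CPM in ALDHneg libraries. Most of this sum came from the keratin genes KRT8 (7401 to 8570 CPM) and KRT18 (3973 to 5034 CPM). CDX1 was at 0.764 CPM or less and CDH17 at 15.8 CPM or less in each of the 6 libraries. The 10 mesenchymal markers summed to 24.6 to 28.5 CPM and 42.9 to 47.9 CPM, against 7762 CPM or more in SUM159, and COL1A2 and COL3A1 had no count in any of the 6 libraries. Of 11 blood and endothelial markers KDR had no count, and the list's sum of 1409 to 1631 CPM came from LYZ, which held 1404 CPM or more in each library.

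The second ALDHbr library stood apart. On log2 CPM over all tested genes its correlation with the other ALDHbr libraries was 0.9916 to 0.9921, against 0.9954 between those 2, and its correlation with the ALDHneg libraries was 0.9918 to 0.9924. It differed from the other ALDHbr libraries with the genomic span of the gene, by a median log2 difference of -0.24 for genes under 3 kb and 0.22 for genes over 100 kb. Counts of called genes are therefore also given without it.

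Of 13953 genes tested with edgeR's quasi-likelihood test, 1577 (11.3%) passed an adjusted p of 0.05, and these are the genes described below as called. They were 760 genes (5.45%) higher and 817 genes (5.86%) lower in ALDHbr cells. Most differences were small, with a median absolute log2 fold change of 0.38 among the called genes and 143 of them (78 higher, 65 lower) reaching 1. The ALDHbr and ALDHneg libraries did not overlap in 3948 of the 13953 tested genes (28.3%), so that a lack of overlap was common. When the second ALDHbr library was left out the count was 5487 of 14147 genes (38.8%), 2626 higher (18.6%) and 2861 lower (20.2%), and 1563 of the 1577 genes were among them, all 1563 with the same sign. With each of the other 5 libraries left out in turn it was 712 to 772 genes.

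ALDH1A1 (chr9:72900671-72953053, GRCh38.p14) is the retinal dehydrogenase most often tied to ALDEFLUOR brightness. Its level was 1357, 1257 and 1327 CPM in the 3 ALDHbr libraries and 884, 922 and 897 CPM in the 3 ALDHneg libraries. The groups did not overlap, and the ALDHneg cells held it at a level of the same order, so that ALDH1A1 RNA was raised in ALDHbr cells and not restricted to them. The log2 fold change was 0.55 ± 0.05 (SE, edgeR adjusted p = 1.12e-05), 0.56 without the second ALDHbr library.

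Among the 15 tested aldehyde dehydrogenases 3 were higher (20%) and 2 were lower (13.3%). The mitochondrial enzyme ALDH2, which clears acetaldehyde, was at 136, 122 and 141 CPM in ALDHbr and 105, 101 and 101 CPM in ALDHneg libraries. ALDH2 rose without overlap (log2 fold change 0.38 ± 0.06, edgeR adjusted p = 0.000779), as did ALDH18A1, the first enzyme of proline synthesis, by 0.33. ALDH1A3, the other main retinal dehydrogenase of tumors, went the other way, with 136, 144 and 134 CPM in ALDHbr and 177, 182 and 173 CPM in ALDHneg libraries. All ALDHbr libraries were below all ALDHneg libraries for ALDH1A3, which fell by 0.36 on the log2 scale (edgeR adjusted p = 0.000723). ALDH3B1 was the other member that fell (-0.23, edgeR adjusted p = 0.028). In the fit without the second ALDHbr library 7 members were higher and 2 lower, and with each of the other 5 libraries left out 3 were higher and 1 or 2 lower.

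Retinoic acid handling and target genes were called in both directions, with 3 of 20 higher (15%) and 6 lower (30%). TGM2, a transglutaminase that retinoic acid induces in many cells, was at 83.6, 98.6 and 96.1 CPM in ALDHbr and 193, 180.0 and 188 CPM in ALDHneg libraries. No libraries overlapped, and TGM2 fell (log2 fold change -1.01 ± 0.06, edgeR adjusted p = 6.46e-07). DHRS9, a retinol dehydrogenase, fell by 0.67 on the log2 scale, and the retinoic acid receptor gene RARG by 0.30. RARRES1, a retinoic acid responsive gene, and RBP4, which carries retinol, were higher (0.52 and 0.53). The receptor gene RARG was named after its values were seen. If the second ALDHbr library was dropped, 3 members were higher and 7 lower, and with each of the other 5 libraries left out 0 to 2 were higher and 3 to 6 lower.

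Genes with the largest changes among the called genes whose log2 CPM averaged 1 or more are shown by library in the plot of ALDH1A1 and these genes. The rule took only genes whose libraries did not overlap between the populations, so that the lack of overlap in them was required. IHH (chr2:219054424-219060921), the hedgehog ligand made by differentiated colon epithelial cells, was at 20.1, 20.4 and 23.4 CPM in ALDHbr and 7.74, 7.80 and 8.67 CPM in ALDHneg libraries. This was the largest increase of the 10 (log2 fold change 1.40 ± 0.10, edgeR adjusted p = 2.28e-06). QPRT (chr16:29679008-29698699), an enzyme of NAD synthesis from tryptophan, was at 28.4, 25.5 and 30.9 CPM and 12.2, 10.1 and 13.6 CPM. It rose by 1.24 on the log2 scale, with no overlap between the populations.

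**Figure D1:**
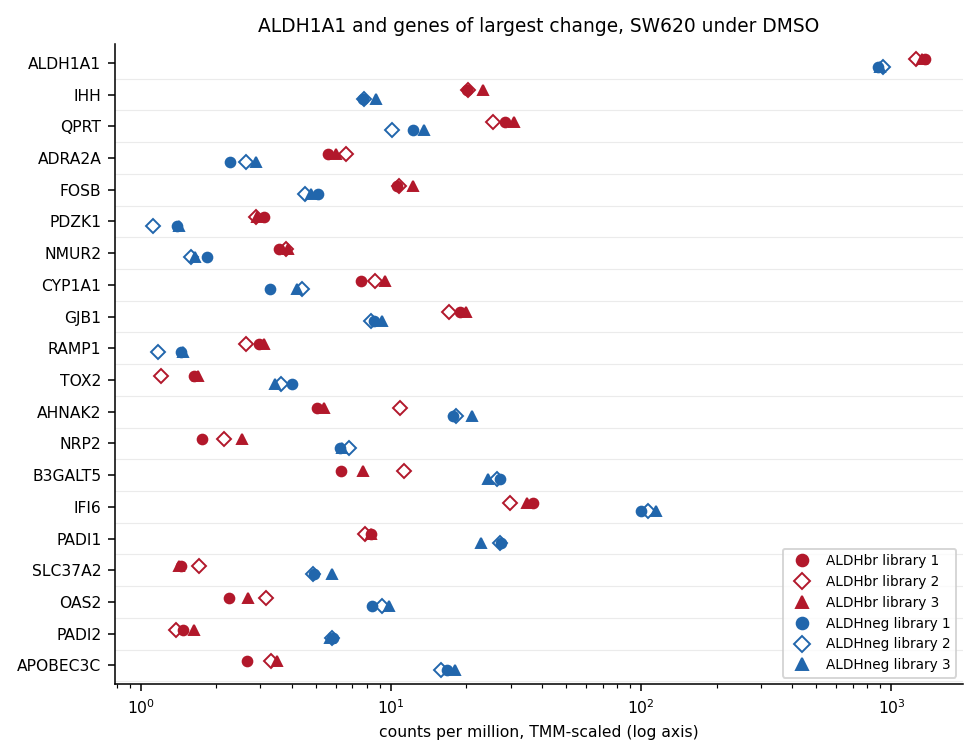
CPM of ALDH1A1 and of genes among the 10 with the highest and the 10 with the lowest log2 fold change, on a log axis, in the 3 ALDHbr (red) and 3 ALDHneg (blue) SW620 libraries under DMSO, each point a library and open diamonds the second library of each population. In each of the 20 genes shown the libraries of the populations do not overlap, which the rule required of all but ALDH1A1.

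Others of the 10 were PDZK1, a scaffold for transporters of the apical membrane (1.18), the connexin gene GJB1 (1.10), CYP1A1, the monooxygenase induced through the aryl hydrocarbon receptor (1.11), the AP-1 subunit gene FOSB (1.21), and the receptor genes ADRA2A (1.23), NMUR2 (1.14) and RAMP1 (1.09), all as log2 fold changes. Their edgeR adjusted p ran from 3.76e-06 for GJB1 to 0.00307 for RAMP1. CYP1A1 was at 7.58, 8.59 and 9.48 CPM in ALDHbr and 3.27, 4.38 and 4.22 CPM in ALDHneg libraries. The lowest ALDHbr value of CYP1A1 thus stood above the highest ALDHneg value.

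Of the 10 genes with the largest decreases, APOBEC3C (chr22:39014257-39020352), a cytidine deaminase that restricts retroelements and viruses, had 2.65, 3.29 and 3.49 CPM in ALDHbr and 16.7, 15.9 and 18.0 CPM in ALDHneg libraries. It was the most decreased of the 10 (log2 fold change -2.43 ± 0.14, edgeR adjusted p = 3.28e-07, -2.48 without the second library). PADI1 and PADI2 encode peptidylarginine deiminases, which turn arginine in proteins into citrulline, and lie near each other on chromosome 1 (chr1:17066761-17119451 and chr1:17205128-17246007). PADI1 was at 8.33, 7.83 and 8.29 CPM in ALDHbr and 27.4, 27.3 and 22.8 CPM in ALDHneg libraries. PADI2 was at 1.47, 1.38 and 1.64 CPM and 5.86, 5.82 and 5.69 CPM. Both fell with no overlap, PADI1 by 1.66 and PADI2 by 1.95 on the log2 scale, while the next gene of the cluster, PADI3, was near 0.2 CPM in both populations and was not called (-0.22, edgeR adjusted p = 0.78).

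B3GALT5, a galactosyltransferase that builds type 1 chains of surface glycans, was at 6.28, 11.3 and 7.74 CPM in ALDHbr and 27.3, 26.5 and 24.4 CPM in ALDHneg libraries. NRP2, a coreceptor for semaphorins and vascular growth factors, was at 1.76, 2.15 and 2.54 CPM and 6.25, 6.81 and 6.37 CPM. The remaining decreases were those of SLC37A2, a sugar-phosphate exchanger of the endoplasmic reticulum (-1.77), the scaffold gene AHNAK2 (-1.43), the HMG-box factor gene TOX2 (-1.28), and the interferon genes OAS2 and IFI6. The second ALDHbr library lay nearest to the ALDHneg libraries in B3GALT5 and AHNAK2, and both changes were larger without it (-1.91 and -1.88).

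Interferon response genes had the highest share of members called in a single direction among the gene lists examined. Type I interferon signals through a complex of STAT proteins and IRF9, which binds the interferon-stimulated response element in the promoters of antiviral genes. Of 39 tested members, 28 were lower in ALDHbr cells (71.8%) and 0 were higher by edgeR, against 5.86% and 5.45% of all tested genes. At an unadjusted p under 0.05 the counts were 29 lower and 1 higher, and by DESeq2 28 lower and 0 higher. The list had a median log2 fold change of -0.45, against 0.01 over all tested genes, and 4 of the 39 values were above 0. The same 28 members were called without the second ALDHbr library, and 22 to 26 were lower when each of the other 5 libraries was left out. In each list described below the 2 highest and 2 lowest called members above a mean log2 CPM of 1 were named by rule, and any other member was chosen after its values were seen.

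Promoter sequences of 4 of the lower members are shown because their letters hold the response element, searched as GAAA, 2 bases of any kind and GAAA, on either strand, in the 250 bases before the gene's start. The sequences are RefSeq's, on GRCh38.p14, 5′ to 3′ on the gene's strand, with the matches in capitals. The 4 are the called members with a match that were most abundant in ALDHneg cells. The windows are chr12:112938224-112938473 on the plus strand for OAS3, chr1:27672193-27672442 on the minus strand for IFI6, chr14:94110486-94110735 on the plus strand for IFI27, which lies inside the annotated gene before a later start, and chr7:93117980-93118229 on the minus strand for SAMD9.
OAS3: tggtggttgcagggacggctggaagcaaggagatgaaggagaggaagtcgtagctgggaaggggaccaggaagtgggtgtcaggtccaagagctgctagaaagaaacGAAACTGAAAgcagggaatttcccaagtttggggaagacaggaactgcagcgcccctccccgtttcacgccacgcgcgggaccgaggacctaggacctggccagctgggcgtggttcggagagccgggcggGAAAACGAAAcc
IFI6: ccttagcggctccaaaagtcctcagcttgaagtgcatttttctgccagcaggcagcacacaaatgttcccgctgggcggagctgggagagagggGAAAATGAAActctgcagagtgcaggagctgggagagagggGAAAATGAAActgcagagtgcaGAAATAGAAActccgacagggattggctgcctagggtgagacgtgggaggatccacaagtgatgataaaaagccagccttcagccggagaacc
IFI27: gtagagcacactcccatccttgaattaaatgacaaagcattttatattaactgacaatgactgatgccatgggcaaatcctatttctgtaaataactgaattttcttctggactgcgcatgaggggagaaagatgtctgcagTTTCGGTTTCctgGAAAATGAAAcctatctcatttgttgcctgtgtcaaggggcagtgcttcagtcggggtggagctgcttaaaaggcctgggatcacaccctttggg
SAMD9: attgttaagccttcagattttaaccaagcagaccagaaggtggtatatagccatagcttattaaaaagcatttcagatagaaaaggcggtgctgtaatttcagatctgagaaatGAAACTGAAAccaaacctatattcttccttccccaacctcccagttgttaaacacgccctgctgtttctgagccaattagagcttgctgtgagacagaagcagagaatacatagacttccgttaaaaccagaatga

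The motif was found in 839 of all 27305 RefSeq promoters of this length (3.07%) and in 245 of the 10651 tested genes with a promoter in the table (2.3%). Among the interferon response genes with a promoter, 13 of 22 members that were lower held it (59.1%), and 4 of 7 that were not called (57.1%). It was present in 30 of 641 genes lower in ALDHbr (4.68%) and in 12 of 568 genes higher (2.11%). The 13 interferon response members are among those 30. A match is a description of the sequence and not evidence that a factor bound it in these cells.

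IFI6 (chr1:27666064-27672192), a mitochondrial protein that protects cells from apoptosis, was at 37.0, 29.8 and 34.8 CPM in ALDHbr and 99.6, 106 and 115 CPM in ALDHneg libraries. Each ALDHbr value was far below each ALDHneg value (log2 fold change -1.66 ± 0.09, edgeR adjusted p = 1.51e-07). IFI27 (chr14:94105894-94116690), another interferon-induced mitochondrial protein, was at 43.6, 41.6 and 46.5 CPM and 92.3, 97.8 and 100.3 CPM. It fell by 1.14 on the log2 scale without overlap (edgeR adjusted p = 1.60e-07). The oligoadenylate synthetases OAS2 and OAS3 activate RNase L on sensing double-stranded RNA. OAS2 (chr12:112978519-113011723) was at 2.24, 3.15 and 2.67 CPM in ALDHbr and 8.37, 9.21 and 9.77 CPM in ALDHneg libraries. OAS3 (chr12:112938474-112973251) was at 70.4, 94.1 and 71.9 CPM and 145, 136 and 150.0 CPM, the second ALDHbr library being the highest of the 3. Neither gene overlapped between the populations (log2 fold changes -1.77 and -0.87, edgeR adjusted p = 2.63e-06 and 0.00022).

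Of the factors that carry the signal, IRF9 was at 6.28, 6.33 and 5.70 CPM in ALDHbr and 9.93, 9.18 and 10.6 CPM in ALDHneg libraries. IRF9 fell by 0.70 on the log2 scale (edgeR adjusted p = 0.000153), while STAT2 (-0.12, edgeR adjusted p = 0.298) and IRF7 (-0.09, edgeR adjusted p = 0.505) did not pass the test. ISG15, a ubiquitin-like modifier, fell by 0.45 (edgeR adjusted p = 0.0155), and the RNA sensors DDX58 and IFIH1 by 0.35 and 0.42. The members that were least changed among those called were OASL (-0.32) and OAS1 (-0.29). Members of the IFIT and IFITM families are close copies of each other, and the handling of shared reads is not given in the sources used here, so that their single values are uncertain.

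Genes of HLA class I antigen presentation, which load peptides onto class I molecules at the cell surface, were lower in 6 of 16 tested (37.5%). By edgeR 0 were higher, with 1 at an unadjusted p under 0.05 and 0 by DESeq2, and leaving out each of the other 5 libraries gave 5 or 6 lower. Without the second ALDHbr library 8 were lower and 1 higher. HLA-B was at 31.9, 27.2 and 31.9 CPM in ALDHbr and 42.9, 42.2 and 47.5 CPM in ALDHneg libraries. The peptide transporter gene TAP1 was at 10.2, 9.56 and 11.1 CPM and 14.3, 13.7 and 16.5 CPM. Both fell without overlap, HLA-B by 0.54 and TAP1 by 0.53 on the log2 scale (edgeR adjusted p = 0.000723 and 0.00108). The other 4 were NLRC5, the transactivator of class I genes (-1.07), PSMB9 (-0.98), HLA-F (-0.75) and TAP2 (-0.36). NLRC5 and PSMB9 were at a low level, below a mean log2 CPM of 1. HLA-C and B2M did not pass (-0.24 and -0.11), and the HLA genes share sequence, which makes the split of reads among them uncertain.

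**Figure D2:**
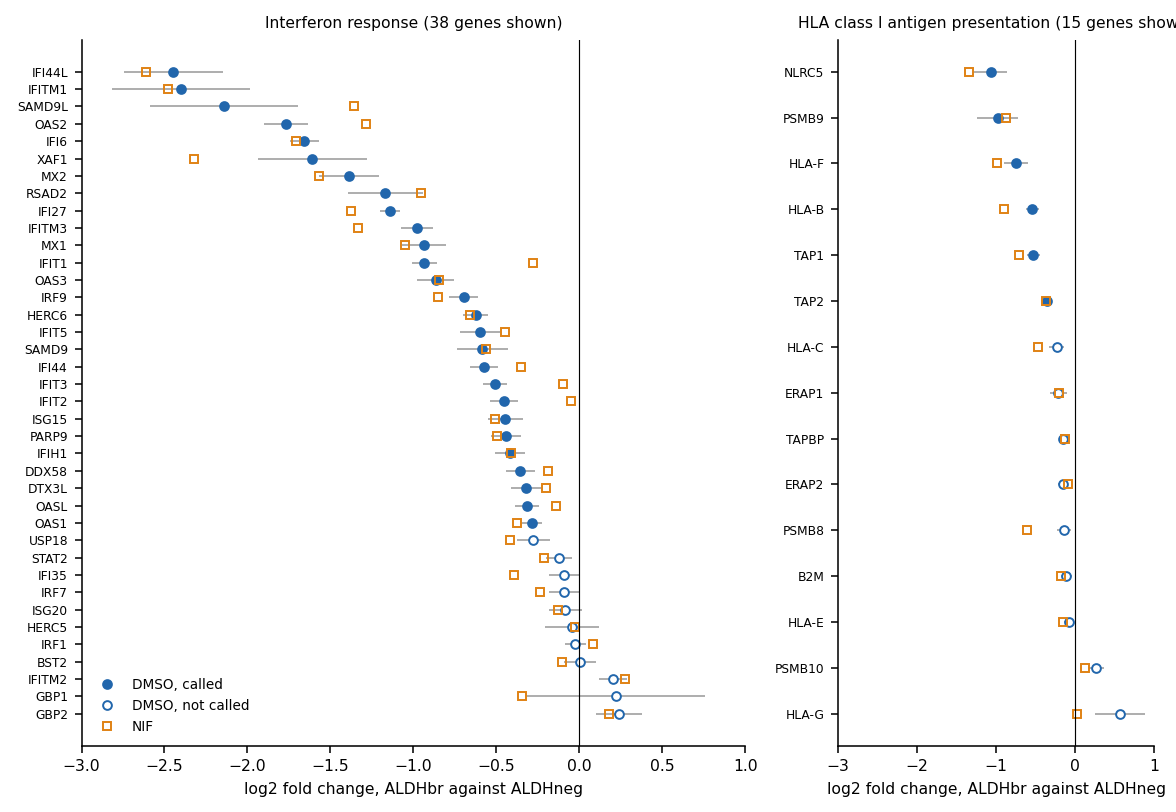
Log2 fold change of ALDHbr against ALDHneg for 38 tested interferon response and 15 tested HLA class I genes in SW620, under DMSO (circles, filled where called, with the standard error as a line) and under NIF (open squares). Over all tested members 28 of 39 in the interferon list were called lower under DMSO and 25 under NIF, and 6 and 7 of 16 in the class I list.

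The list of pluripotency factors and of cell surface markers used to isolate cancer stem cells had calls in both directions. Of its 12 tested members 6 were higher (50%) and 3 lower (25%), all of them surface markers. The hyaluronan receptor gene CD44 (chr11:35139171-35232402) was at 281, 339.5 and 307 CPM in ALDHbr and 193, 193 and 179 CPM in ALDHneg libraries. CD44 rose without overlap (log2 fold change 0.71 ± 0.07, edgeR adjusted p = 3.58e-05). CD24 (chr6:106969831-106976855), a small glycosylated surface protein, was at 516, 505 and 489.9 CPM and 349.5, 358 and 374 CPM, an increase of 0.48 (edgeR adjusted p = 1.65e-05). PROM1 (CD133), the chemokine receptor gene CXCR4, EPCAM and DPP4 (CD26) were the other members that rose, by 0.43, 0.45, 0.29 and 0.29 on the log2 scale.

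ALCAM (CD166), an adhesion molecule also used as a colon stem cell marker, went the other way, with 17.5, 20.8 and 16.9 CPM in ALDHbr and 35.9, 35.2 and 35.2 CPM in ALDHneg libraries. The groups lay far apart, and ALCAM fell by 0.94 on the log2 scale (edgeR adjusted p = 4.14e-05). The integrin genes ITGA6 (CD49f) and ITGB1 (CD29) fell by 0.38 and 0.16. The pluripotency factor genes SOX2, NANOG, LIN28A and LIN28B were too low to test, and POU5F1 and KLF4 did not pass. The same 9 members were called without the second ALDHbr library, and 4 or 5 were higher and 2 lower when each of the other 5 libraries was left out.

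Intestinal stem cell genes and targets of Wnt signalling, which keeps crypt base cells dividing, were also split, with 8 of 24 higher (33.3%) and 4 lower (16.7%). LGR5, the receptor that marks crypt base stem cells, was at 17.9, 20.3 and 17.9 CPM in ALDHbr and 12.7, 12.3 and 13.1 CPM in ALDHneg libraries. ASCL2, a transcription factor of the same cells, was at 7.89, 7.12 and 9.51 CPM and 3.61, 5.03 and 3.77 CPM. Neither overlapped, and LGR5 rose by 0.56 (edgeR adjusted p = 0.00114) and ASCL2 by 0.98 (edgeR adjusted p = 0.00217) on the log2 scale. SP5, a Wnt target, rose by 0.70, and PTPRO, EPHB3, LRIG1, CDCA7 and ETS2 were the other members that rose.

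AXIN2, a feedback inhibitor that is the usual readout of Wnt signalling, was at 65.3, 71.5 and 64.9 CPM in ALDHbr and 87.2, 88.7 and 85.4 CPM in ALDHneg libraries. It fell by 0.37 without overlap (edgeR adjusted p = 0.00153). The secreted Wnt inhibitor gene DKK1, the receptor gene EPHB2 and the cyclin gene CCND1 fell by 0.55, 0.39 and 0.35. OLFM4 and SMOC2 were too low to test. When the second ALDHbr library was left out 8 members were higher and 9 lower, and with each of the other 5 libraries left out 5 to 7 were higher and 4 lower.

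Genes of absorptive colon differentiation rose more often than they fell, with 7 of 22 higher (31.8%) and 2 lower (9.09%). The tetraspanin gene TSPAN8 (chr12:71125096-71157999) was at 357, 282 and 324 CPM in ALDHbr and 186, 201 and 204 CPM in ALDHneg libraries. HNF4A, a nuclear receptor that drives enterocyte genes, was at 118, 122 and 122 CPM and 89.4, 81.3 and 86.1 CPM. Both rose without overlap, TSPAN8 by 0.70 and HNF4A by 0.50 on the log2 scale (edgeR adjusted p = 6.31e-05 and 5.09e-05). The transmembrane mucin gene MUC13 rose by 0.58 and the lectin gene LGALS4 by 0.42. The intestinal homeobox gene CDX2 rose by 1.44 at a low level, 1.54, 2.00 and 1.61 CPM against 0.635, 0.574 and 0.680 CPM.

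FABP1 and GUCA2A, also called higher, were below 1 CPM in the mean of either population. The adhesion molecule genes CEACAM6 and CEACAM5 fell by 0.59 and 0.23, and KRT20, VIL1 and CDH17 did not pass the test (0.14, 0.14 and 0.31). Of the 10 colon epithelial markers EPCAM, LGALS4 and CDX2 were higher and 0 were lower by edgeR, at an unadjusted p under 0.05 and by DESeq2, with 5 higher without the second ALDHbr library and 2 without each of the others. In the fit without the second ALDHbr library 11 absorptive members were higher and 3 lower, and with each of the other 5 libraries left out 5 or 6 were higher and 1 lower.

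Secretory and enteroendocrine genes showed the highest median difference of any list, a log2 fold change of 0.94 over 14 tested, with 5 higher (35.7%) and 1 lower (7.14%). TFF3, a trefoil peptide of goblet cells, was at 2.72, 2.59 and 3.08 CPM in ALDHbr and 0.683, 0.835 and 0.822 CPM in ALDHneg libraries. FCGBP, a mucus protein of the same cells, was at 2.86, 3.71 and 2.73 CPM and 1.00, 0.887 and 1.27 CPM. ATOH1, the transcription factor that specifies the secretory lineage, was at 1.23, 1.24 and 1.17 CPM and 0.317, 0.548 and 0.680 CPM. None of the 3 overlapped, and they rose by 1.84, 1.55 and 1.25 on the log2 scale (edgeR adjusted p = 6.31e-05, 0.000119 and 0.0154).

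These secretory genes were near 1 CPM, and in bulk libraries more cells of a type and more RNA per cell cannot be told apart. AGR2, a secretory disulfide isomerase at a higher level, was at 171, 150.4 and 179.7 CPM in ALDHbr and 111, 115 and 129.5 CPM in ALDHneg libraries. AGR2 rose by 0.49 without overlap (edgeR adjusted p = 0.00142), and the Notch ligand gene DLL4 rose by 0.94. SPDEF, which promotes goblet cell maturation, fell by 0.31, and MUC2 did not pass (1.01, edgeR adjusted p = 0.0624). CHGA, CHGB and NEUROD1 of the enteroendocrine cells were too low to test. If the second ALDHbr library was dropped, 7 were higher and 1 lower, and with each of the other 5 libraries left out 3 to 5 were higher and 1 lower.

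Aldo-keto reductases, cytochromes P450, alcohol dehydrogenases and glucuronosyltransferases, which reduce, oxidize or conjugate aldehydes and foreign compounds, had 10 of 33 members higher (30.3%) and 2 lower (6.06%). AKR1B10 (chr7:134527567-134541412), which reduces retinal and other aldehydes to alcohols, was at 431, 389 and 437 CPM in ALDHbr and 270.2, 298 and 286 CPM in ALDHneg libraries. It rose without overlap (log2 fold change 0.56 ± 0.06, edgeR adjusted p = 4.45e-05). ADH1C, an alcohol dehydrogenase, was at 3.03, 2.32 and 3.05 CPM and 0.537, 0.522 and 0.822 CPM, an increase of 2.17 at a low level (edgeR adjusted p = 8.57e-05). Its reads may be shared with ADH1A and ADH1B. CYP1A1, given above, CYP27A1, which hydroxylates sterols, and AKR7A3 rose by 1.11, 0.89 and 0.39. The vitamin D hydroxylase gene CYP24A1 fell by 0.48 and CYP4F3 by 0.41. Without the second ALDHbr library 15 were higher and 3 lower, and with each of the other 5 libraries left out 5 to 7 were higher and 0 to 2 lower.

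Lists of related defences moved in few members. Among 24 NRF2 targets 3 were higher (12.5%), AKR1C1, AKR1B10 and the efflux pump gene ABCC2 (0.81), and 0 lower by edgeR, with 3 lower at an unadjusted p under 0.05 and 2 by DESeq2. NQO1 and HMOX1 did not pass (0.05 and 0.04). Of 14 drug efflux transporters 3 were higher (21.4%), ABCC2, ABCC6 and ABCG2, and ABCG1 fell. ABCG2, the transporter behind the side population of stem cells, was at 137, 142 and 137 CPM in ALDHbr and 115, 117 and 111 CPM in ALDHneg libraries, a log2 fold change of 0.28 without overlap (edgeR adjusted p = 0.00418). Of 17 glutathione enzymes 2 were higher (11.8%), GPX3 and GSTP1, and 0 lower at any of these thresholds (edgeR, unadjusted p under 0.05, DESeq2).

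When the second ALDHbr library was left out the NRF2 list had 8 higher and 4 lower, the efflux list 4 and 4, and the glutathione list 8 and 0, and with each of the other 5 libraries left out 0 glutathione members were called. Of 4 metallothioneins MT1X was higher (0.64), lower under NIF (-0.61), and not called when any of those 5 libraries was left out. For MT1X the difference between the DMSO and NIF contrasts did not pass edgeR's test (adjusted p = 0.1363). Of 15 heat shock chaperones HSPB1 rose by 0.49 and 0 fell by edgeR, with 1 at an unadjusted p under 0.05 and 0 by DESeq2.

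**Figure D3:**
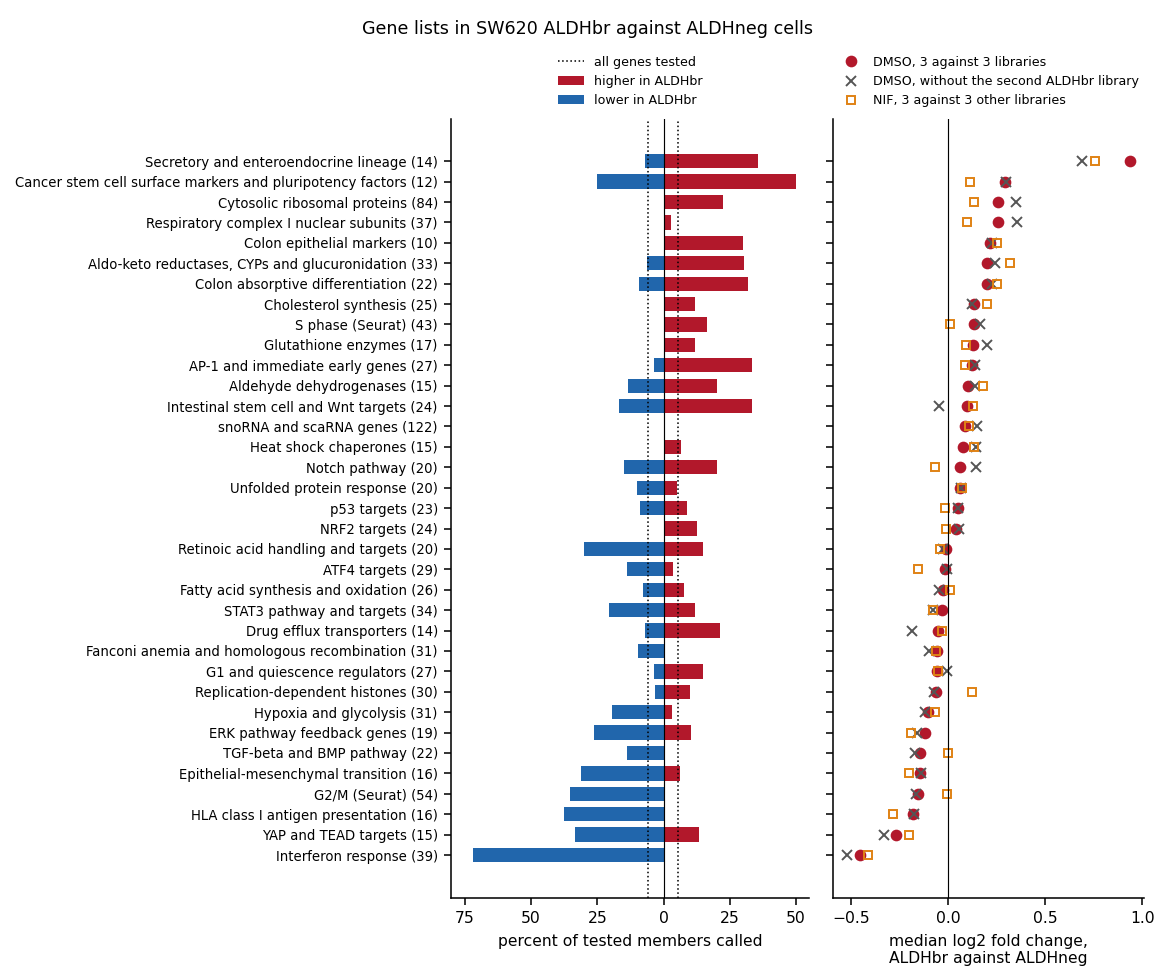
Left, percent of the tested members of each gene list with at least 10 tested members called higher (red) or lower (blue) in SW620 ALDHbr than in ALDHneg cells under DMSO, with the number tested in parentheses and the shares of all genes, 5.45% and 5.86%, as dotted lines. Right, median log2 fold change of each list under DMSO, under DMSO without the second ALDHbr library, and under NIF. Of the lists shown, the interferon response list lies lowest in all 3 and the secretory list highest in all 3.

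AP-1 and immediate early genes, which answer growth factors and stress within minutes, were higher in 9 of 27 (33.3%) and lower in 1. FOSB led the list, and CCN1 and CCN2, secreted matrix proteins, followed. CCN2 was at 7.75, 6.74 and 6.79 CPM in ALDHbr and 3.66, 3.78 and 3.17 CPM in ALDHneg libraries, and CCN1 at 17.8, 18.1 and 17.8 CPM and 9.88, 11.9 and 9.89 CPM. Both rose without overlap, by 1.00 and 0.76 on the log2 scale (edgeR adjusted p = 6.82e-05 and 3.75e-05). JUN, JUND, FOS, IER5, NR4A1 and DUSP1 rose by 0.30 to 0.48, and EGR1 and JUNB did not pass (-0.18 and 0.05). DUSP5 fell by 0.29 on the log2 scale. In the fit without the second ALDHbr library 11 were higher and 3 lower, and with each of the other 5 libraries left out 4 to 7 were higher and 0 or 1 lower.

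CCN1 and CCN2 are also targets of YAP and TEAD, and the other called members of that list went the other way, with 5 of 15 lower (33.3%) and these 2 higher (13.3%). The lower members were AXL, NT5E (CD73), TGFB2, AMOTL2 and AJUBA. The receptor tyrosine kinase gene AXL was at 5.46, 6.21 and 7.33 CPM in ALDHbr and 13.4, 14.0 and 13.2 CPM in ALDHneg libraries, and it fell by 1.10 without overlap (edgeR adjusted p = 9.50e-06). NT5E was at 46.3, 53.4 and 49.7 CPM and 79.2, 79.0 and 78.5 CPM, a decrease by 0.66 (edgeR adjusted p = 2.03e-05). If the second ALDHbr library was dropped, 3 YAP and TEAD targets were higher and 9 lower, and with each of the other 5 libraries left out 2 were higher and 2 to 4 lower.

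Genes of epithelial-mesenchymal transition were lower in 5 of 16 tested (31.2%) and higher in 1. TGFBI, a secreted matrix protein, was at 91.9, 84.9 and 96.1 CPM in ALDHbr and 132, 115 and 122 CPM in ALDHneg libraries, and fell by 0.43 without overlap (edgeR adjusted p = 0.000603). FN1 was low, at 0.505, 0.471 and 0.382 CPM against 2.05, 1.56 and 1.25 CPM. The epithelial genes ESRP1 and GRHL2 fell as well, by 0.25 and 0.28, CDH1 did not pass (0.00), and the protease gene MMP7 rose by 0.26. Of the 6 tested mesenchymal markers AXL, FN1 and the caveolin gene CAV1 were lower and 0 higher by edgeR, at an unadjusted p under 0.05 and by DESeq2. The count stayed at 3 lower in every fit that left out a library. CAV1 was at 8.06, 8.47 and 9.16 CPM in ALDHbr and 15.0, 18.2 and 17.9 CPM in ALDHneg libraries, a decrease by 0.99 (edgeR adjusted p = 1.81e-05), while VIM did not pass (0.28, edgeR adjusted p = 0.781). The mesenchymal markers summed to 24.6 to 28.5 CPM in ALDHbr and 42.9 to 47.9 CPM in ALDHneg libraries, with COL1A2 and COL3A1 at 0, and the part of other cells in these decreases was not tested.

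Feedback genes of the ERK pathway were lower in 5 of 19 (26.3%) and higher in 2 (10.5%). The phosphatase gene DUSP4 was at 38.2, 42.4 and 40.1 CPM in ALDHbr and 60.0, 63.2 and 60.7 CPM in ALDHneg libraries, and fell by 0.61 (edgeR adjusted p = 1.12e-05). The growth factor gene TGFA, PHLDA1, SPRED1 and DUSP5 also fell, SPRY2 and the EGFR ligand gene AREG rose by 0.36 and 0.45, and DUSP6 did not pass (-0.10). Without the second ALDHbr library 3 were higher and 11 lower, and with each of the other 5 libraries left out 1 or 2 were higher and 3 to 5 lower.

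In the Notch pathway, which sets the choice between absorptive and secretory fates, 4 of 20 were higher (20%) and 3 lower (15%). The genes HES6, HES4 and NRARP and the ligand gene DLL4 rose, by 0.90, 0.56, 0.34 and 0.94 on the log2 scale. The ligand gene JAG1, the DNA-binding factor gene RBPJ and the coactivator gene MAML2 fell by 0.37, 0.27 and 0.81, and HES1 did not pass (0.14). When the second ALDHbr library was left out 6 Notch genes were higher and 7 lower, and with each of the other 5 libraries left out 2 were higher and 0 or 1 lower. Of 22 TGF-beta and BMP genes TGFB2, SMAD3 and BMP4 were lower and 0 were higher by edgeR, with 2 higher at an unadjusted p under 0.05 and 0 by DESeq2.

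The STAT3 pathway and its targets were split, with 4 of 34 higher (11.8%) and 7 lower (20.6%), and STAT3 itself did not pass (-0.10, edgeR adjusted p = 0.299). PIM1 and the receptor gene IL6R rose by 0.36 and 0.71 and were not higher under NIF (-0.04 and -0.05). The difference between the DMSO and NIF contrasts did not pass edgeR's test for either (adjusted p = 0.1985 and 0.1576). PIAS3, CCND1, HIF1A, the cytokine gene LIF, SERPINA3 and SOCS3 were among those that fell, the last at about 1 CPM. In the fit without the second ALDHbr library 7 were higher and 11 lower, and with each of the other 5 libraries left out 2 or 3 were higher and 5 or 6 lower. Of 31 hypoxia and glycolysis genes 6 were lower (19.4%), with 2 to 6 in the fits without one of those 5 libraries and 12 without the second ALDHbr library, and 1 was higher. The glucose transporter gene SLC2A1 was at 759.7, 888 and 893 CPM in ALDHbr and 1071, 1086 and 1181 CPM in ALDHneg libraries, a decrease by 0.39 (edgeR adjusted p = 0.00113). ENO2, PFKFB4, BNIP3L, P4HA2 and PFKP also fell, and the vasodilator peptide gene ADM rose by 0.56.

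Other lists held few called members. Cholesterol synthesis had 3 of 25 higher (12%), ACAT2, EBP and TM7SF2, and 0 lower by edgeR, with 2 lower at an unadjusted p under 0.05 and 0 by DESeq2, against 10 higher and 3 lower without the second ALDHbr library. Fatty acid genes had 2 of 26 higher, FABP1 among them, and ELOVL6 and ACSL1 lower. Of 29 ATF4 targets PPP1R15A was higher and SLC7A5, PSAT1, SLC1A4 and VLDLR were lower. Of 20 genes of the unfolded protein response CRELD2 was higher and SEL1L and EDEM1 were lower. Among 23 p53 targets BTG2 (0.76) and SESN1 (0.49) were higher, FAS and PHLDA3 were lower, and CDKN1A did not pass (-0.06). Of 31 Fanconi anemia and homologous recombination genes ERCC4, SLX4 and FAN1 were lower and 0 higher by edgeR, with 4 higher at an unadjusted p under 0.05 and 0 by DESeq2. Of 30 replication-dependent histone genes H2BC5, H2BC12 and H2AC6 were higher and H2BC17 was lower, and of 122 snoRNA and scaRNA genes 0 were called by edgeR or DESeq2, with 11 higher and 2 lower at an unadjusted p under 0.05.

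Several of these calls depended on single libraries. If the second ALDHbr library was dropped, 18.6% of all genes were higher and 20.2% lower. The list counts, higher and lower, were then 4 and 7 of 26 fatty acid genes, 6 and 7 of 29 ATF4 targets and 9 and 3 of 20 unfolded protein response genes. They were 7 and 1 of 15 chaperones, 6 and 5 of 23 p53 targets and 5 and 9 of 31 Fanconi anemia genes. For TGF-beta and BMP genes they were 3 and 10 of 22, and for histones 3 and 4 of 30. With each of the other 5 libraries left out 0 Fanconi anemia genes and 0 genes of the unfolded protein response were called, 1 to 4 ATF4 targets and 1 or 2 TGF-beta and BMP genes were lower, and 1 or 2 cholesterol synthesis genes and 0 or 1 chaperones were higher. Of the 3 blood and endothelial markers that could be tested 0 were called by edgeR or DESeq2 or reached an unadjusted p under 0.05.

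Genes of the cell cycle differed in small steps. Of 54 G2/M genes 19 were lower (35.2%) and 0 higher by edgeR, at an unadjusted p under 0.05 and by DESeq2, and the median was -0.15 on the log2 scale. The kinesin gene CENPE, which aligns chromosomes, was at 55.6, 69.2 and 54.3 CPM in ALDHbr and 80.8, 85.8 and 82.4 CPM in ALDHneg libraries. It fell by 0.48 (edgeR adjusted p = 0.0191), and CKAP2L, at the other named low end, by 0.49. The proliferation marker MKI67 was at 346, 702 and 431 CPM and 734, 704 and 729 CPM, and did not pass (-0.55, edgeR adjusted p = 0.0935). For MKI67 the second ALDHbr library lay next to the ALDHneg libraries, and the other ALDHbr libraries lay well below them. Without that library 28 G2/M genes were lower and 1 higher, and with each of the other 5 libraries left out 7 to 12 were lower.

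Of 43 S phase genes 7 were higher (16.3%) and 0 lower by edgeR, at an unadjusted p under 0.05 and by DESeq2, against 21 higher and 3 lower without the second ALDHbr library and 1 or 2 higher without each of the others. They included PCNA, the sliding clamp of DNA synthesis (0.27, edgeR adjusted p = 0.049), and the flap endonuclease gene FEN1 (0.34, edgeR adjusted p = 0.0177). Of 27 regulators of G1 and quiescence 4 were higher, the antiproliferative gene BTG2, SESN1, CCNE1 and the inhibitor gene CDKN1C (0.84), and CCND1 was lower. Without the second ALDHbr library that list had 8 higher and 9 lower.

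Genes of the ribosome and of respiratory complex I were shifted upward together by small amounts. All 84 tested cytosolic ribosomal protein genes had a positive log2 fold change, with a median of 0.26, and 19 were called (22.6%). The ribosomal stalk protein gene RPLP2 was at 1033, 748 and 1014 CPM in ALDHbr and 713, 695 and 651 CPM in ALDHneg libraries (log2 fold change 0.44 ± 0.11, edgeR adjusted p = 0.0203). The second ALDHbr library lay close to the ALDHneg libraries for RPLP2, as it did for NDUFB9, the called complex I gene, with 619.5, 466 and 599 CPM against 443, 439.9 and 417 CPM. Complex I had 36 of 37 positive values, a median of 0.26 and 1 gene called. When the second ALDHbr library was left out 81 ribosomal and 33 complex I genes were called higher. With each of the other 5 libraries left out the ribosomal count was 0 to 3 and the complex I count 0.

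The difference between the populations also went with the genomic span of the genes. Across 13840 tested genes with a RefSeq span, the median log2 fold change was 0.15 for 976 genes under 3 kb and fell by steps to -0.12 for 2238 genes over 100 kb. In the fit without the second ALDHbr library these ends were 0.21 and -0.21, and under NIF 0.06 and -0.07. The ALDHbr NIF libraries were unlike each other in this. Relative to the mean of the 6 NIF libraries, the third had ends of 0.149 and -0.139. The first had -0.06 and 0.049, and the second 0.012 and -0.017. The ALDHneg NIF libraries ran from -0.046 to 0.024 and from 0.01 to 0.061. The median span was 5025 bases for the ribosomal, 30537.5 bases for the G2/M and 26893 bases for all tested genes. With offsets that remove the relation to span in each library, chosen after the data were seen, 32 ribosomal genes were higher (median 0.16), 22 G2/M genes lower (median -0.14) and 29 interferon response genes lower, beside 6.84% of all tested genes higher and 7.34% lower. How far RNA quality, library size selection or RNA maturation enters the relation to span was not tested.

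**Figure D4:**
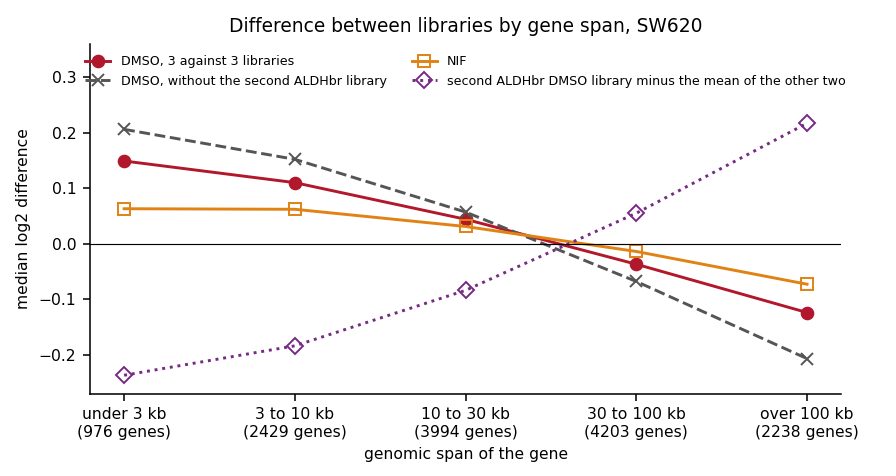
Median log2 difference of tested SW620 genes in 5 classes of genomic span (numbers of genes in parentheses). The ALDHbr against ALDHneg difference under DMSO, with and without the second ALDHbr library, and under NIF falls from short to long genes, while the second ALDHbr library differs from the mean of the other ALDHbr libraries in the opposite direction, from -0.24 to 0.22.

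Chromosome 11 stood out in the position of the called genes. Of its 805 tested genes, 126 were higher in ALDHbr cells (15.7%, against 5.45% of all tested genes) and 31 lower (3.85%). The median log2 fold change on chromosome 11 was 0.10, and 67% of its genes had a positive value. Along the chromosome the median was 0.13 from 0 to 20 Mb, 0.09 from 20 to 50 Mb, 0.12 from 50 to 80 Mb, 0.07 from 80 to 110 Mb and 0.04 from 110 to 140 Mb. Relative to the mean of the 6 DMSO libraries, its median ran from 0.003 in the second ALDHbr library to 0.076 in the ALDHbr DMSO libraries and from -0.051 to -0.038 in the ALDHneg DMSO libraries, without overlap. With the span offsets the median was 0.08.

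Chromosome 7 followed with a median of 0.07 over 708 genes (0.06 with the span offsets) and chromosome 19 with 0.07 over 966 genes (0.03 with the span offsets). Chromosome 18 was lowest at -0.05 over 188 genes, and its median was -0.003 with the span offsets. If the second ALDHbr library was dropped, chromosome 11 had 277 genes higher and 111 lower, where 18.6% of all genes were higher and 20.2% lower. In the same fit chromosome 19 had 245 genes higher and 94 lower, and its median of 0.10 was close to the 0.11 of chromosome 11. CD44, ASCL2, FEN1, RPLP2, GSTP1, ADM, CDKN1C, MMP7 and TM7SF2 lie on chromosome 11 among the genes named above that were higher. SLC37A2, ALDH3B1, MAML2 and CCND1 lie there among those that were lower. Genes of 1 chromosome are not independent of each other, and whether the populations differ in the number of copies of chromosome 11 was not tested.

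**Figure D5:**
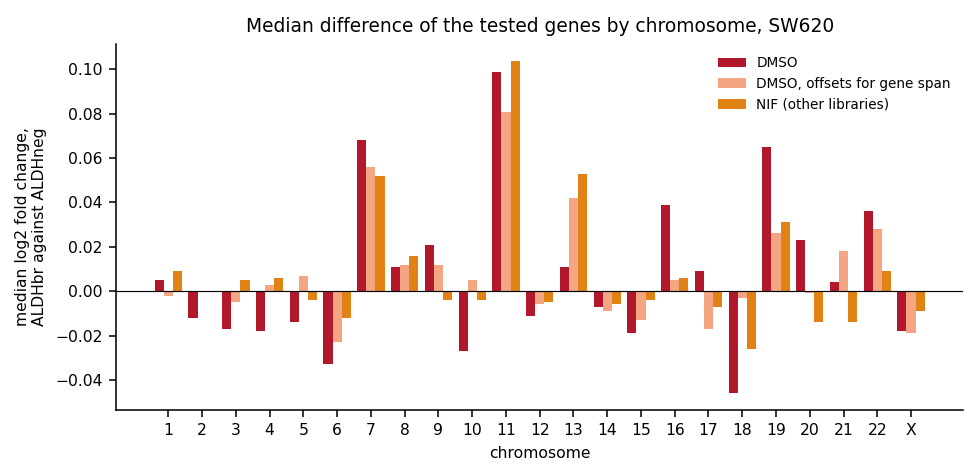
Median log2 fold change of ALDHbr against ALDHneg over the tested genes of each chromosome in SW620, under DMSO (red), under DMSO with offsets for gene span (light red) and under NIF (orange). Chromosome 11 has the highest median in all 3, at 0.10, 0.08 and 0.10.

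The 6 SW620 libraries under NIF gave the same comparison in other sorted cells, under another treatment. There 931 of 13953 genes were called (6.67%), 476 higher (3.41%) and 455 lower (3.26%). With library-size scaling alone the split was 584 higher and 367 lower, and without the second ALDHbr NIF library or any 1 of the 3 ALDHneg NIF libraries the count was 494 to 578. Both contrasts called 611 genes, which were 38.7% of those under DMSO and 65.5% of those under NIF, and 610 of them had the same sign. Of the 1577 genes called under DMSO, 95.6% had the same sign under NIF, as did 73.4% of the genes that were not called. ALDH1A1 differed by 0.80 on the log2 scale under NIF (edgeR adjusted p = 4.73e-07). The difference between the contrasts passed edgeR's test in 1 of 13953 genes, with 771 at an unadjusted p under 0.05. That gene was CLDN2, a claudin that forms cation pores in tight junctions, with 157, 161 and 169.8 CPM in ALDHbr and 127, 122 and 119.5 CPM in ALDHneg libraries under DMSO (log2 fold change 0.41) and a log2 fold change of 1.14 under NIF.

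Of the 28 interferon response genes lower under DMSO, 23 were also called lower under NIF, and all 28 had a negative value there. The same held for 5 of the 6 class I genes, 5 of the 7 absorptive genes that rose, 4 of the 5 secretory genes and 4 of the 6 stem cell surface markers that rose, and for all 3 surface markers that fell. CD44 rose by 0.81 under NIF, LGR5 by 1.34 and IFI6 had a log2 fold change of -1.71 (edgeR adjusted p = 1.54e-05, 3.52e-05 and 6.81e-08). None of the G2/M, S phase and ribosomal calls passed the test there, while the values of 19 of the 19 ribosomal, 7 of the 7 S phase and 15 of the 19 G2/M genes kept their sign. Of the G1 and quiescence regulators 1 of the 4 that rose, BTG2, passed under NIF in the same direction, as did CCND1, which fell. Under NIF edgeR called 0 of the G2/M, S phase, ribosomal and complex I genes, and DESeq2 called 0 of them as well. At an unadjusted p under 0.05 there were 4 G2/M genes higher and 2 lower, 4 S phase genes higher and 1 lower, 13 ribosomal genes higher and 6 complex I genes higher. On chromosome 11 the median was 0.10 under NIF, with 66 genes higher and 21 lower and 72.8% of values positive.

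In SUM159 the same sort gave 3432 of 14953 genes called under DMSO (23%). Of 12780 genes tested in both lines, 1347 were called in SW620 and 2808 in SUM159, and 189 were called with the same sign, 14% of the first and 6.73% of the second, against 276 with opposite signs. The interferon response list had 5 of 35 higher and 4 lower in SUM159. These counts were near the shares of all genes tested in that line, 10.7% higher and 12.3% lower. IFI6 was at -0.18 (edgeR adjusted p = 0.431) and OAS3 at 0.35 (edgeR adjusted p = 0.00892) in SUM159. The median log2 fold change on chromosome 11 was 0.01. The difference between the lines passed edgeR's test over all 24 libraries in 3103 of 16271 genes (19.1%, with 9.02% higher and 10.1% lower in SW620), and for CD44 it was 0.62 (edgeR adjusted p = 2.73e-05), SW620 minus SUM159. AXL fell in both lines, by 1.10 in SW620 and 0.76 in SUM159, and so did ALCAM, by 0.94 and 0.46.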

How the data were processed

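Total RNA of sorted SW620 and SUM159 cells was extracted with an automated kit and sequenced after a stranded, total RNA library preparation. The authors deposited raw counts for each gene and library, as whole numbers without normalization. The table holds 28307 genes with symbols and Entrez numbers, and 4579 of them had no count. The submitters' processing notes list STAR, FastQC and GRCh38 without versions, and the counting tool and annotation are not given in the sources used here. Reads shared by overlapping genes or close copies may therefore be split among them.

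The 12 SW620 libraries, in 4 groups of 3 (ALDHbr or ALDHneg, DMSO or NIF), were fitted together in R 4.3.3 with edgeR 4.0.16 (filterByExpr by group, TMM, quasi-likelihood F test, no pairing), and p-values were adjusted by Benjamini-Hochberg over all 13953 genes tested at 0.05. The difference between lines used all 24 libraries. Library sizes for CPM were scaled by TMM, log2 CPM had a prior count of 2, and errors are standard errors of the log2 fold change. Positions and spans come from RefSeq (GRCh38.p14) by Entrez number, for 13840 tested genes, and promoters from the same build by symbol. Total counts of 30253187 to 43127948 over all libraries bear on counting error only.

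The comparison, the 39 gene lists (1 of which, mitochondrial genes, matched no row) and the rule for named genes were chosen with earlier results of these data known. By that rule ALDH1A1 was named first. The 10 highest and 10 lowest log2 fold changes followed, taken from called genes whose 3 ALDHbr and 3 ALDHneg DMSO libraries did not overlap and whose log2 CPM averaged 1 or more. Last came the 2 highest and 2 lowest called members of each list above the same level. A few of these genes are left out of the text, though they stay in all counts. A list is described by its counts and median, without a set test.

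The alternatives were DESeq2 1.42.0, RLE or library-size scaling, other filters on low counts, other sets of libraries, a replicate block, a minimum fold change, each library left out, and, added after the data were seen, offsets for gene span (lowess fraction 0.3). Replicates of the 6 DMSO libraries differed by more than sampling noise (chi-square per gene 3.7 to 46.4 over 6 pairs). In counts simulated for the SW620 DMSO contrast, with a log2 fold change of 1 in 200 genes, edgeR recovered 178 (89%) among 13783 genes with 6 false calls, and with no change called 0 of 13782. Those counts held no deviating library and no relation to gene span, unlike the data. When only a relation to span was simulated in the ALDHbr DMSO libraries, edgeR called 833 genes without span offsets and 0 with them. The study's methods describe 3 independent experiments. The p-values of the SW620 contrasts rest on the spread between libraries within groups, estimated over the 12 SW620 libraries together, NIF included.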

Additional observations from a re-analysis of the deposited data

Results flagged for a closer look

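The sort was also made in SUM159, and the ALDHbr against ALDHneg difference under DMSO was tested between the lines (edgeR, all 24 libraries, adjusted over 16271 genes). Of the 21 genes made of ALDH1A1 and the 20 largest SW620 changes, 14 passed the test, given here as log2 SW620 minus SUM159. ALDH1A1 had -7.57, since its log2 fold change was 0.55 in SW620 and 8.11 in SUM159. Genes with a positive difference were IHH with 1.69, ADRA2A with 2.73, FOSB with 1.56, CYP1A1 with 2.48, which fell in SUM159 (-1.37, edgeR adjusted p = 0.00664), and RAMP1 with 1.25. Genes with a negative difference were APOBEC3C with -2.3, OAS2 with -1.78, SLC37A2 with -2.85, which rose in SUM159 (1.08, edgeR adjusted p = 1.93e-05), PADI1 with -1.5, IFI6 with -1.48, NRP2 with -1.05, AHNAK2 with -1.23 and TOX2 with -1.16. IHH and ADRA2A were not tested within SUM159, where their counts were low. What sets the lines apart was not tested.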

How the results depend on the processing

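The SW620 DMSO count of 1577 called genes was 143 with a minimum absolute log2 fold change of 1, 729 in a fit of only the 6 libraries compared, and 4969 with span offsets and without the second ALDHbr library. With each library left out it ran from 712 to 5487, the last without the second ALDHbr library. The NIF count of 931 was 121 with the minimum fold change and ran from 494 to 996 with each library left out. The line difference, 3103 genes, was 840 with the minimum and ran from 2154 to 4586. With DESeq2 the counts were 2194, 1189 and 3535, and with span offsets the DMSO count was 1979. No alternative reversed the direction of a named gene, but the balance of calls was not stable. Under DMSO 760 genes were higher and 817 lower, against 782 and 763 with scaling to library size alone. Under NIF 476 were higher and 455 lower, against 444 and 486 with RLE size factors and 560 and 629 with DESeq2. For the line difference 1467 and 1636 became 1654 and 1321 with scaling to library size alone. Same-numbered libraries deviated from their group means with correlations of -0.08 to 0.062, which show no pairing by replicate number. With 3 libraries a group and a deviating library among them, these values cannot exclude that same-numbered libraries shared an experiment. With the replicate block the counts were 1143, 698 and 3845. Of 108 named genes 63 kept their call and direction under each of 16 alternatives that tested them (15 for PDZK1), the minimum fold change aside, among them ALDH1A1 and the 20 largest changes, and the other 45 lost the call in 1 or more. Why leaving out a library other than the second ALDHbr library lowers the counts was not tested. Under DMSO the smallest difference called was 0.145 on the log2 scale, and the median absolute value among called genes was 0.38. With 3 libraries a group, differences larger than 0.145 did not pass in other genes, such as MKI67 and MUC2, given above.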

Other observations

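Among the 707 genes whose log2 CPM averaged 8 or more, 49 were higher (6.93%) and 56 lower (7.92%) in ALDHbr cells under DMSO. The 5 most decreased of these abundant genes, chosen after the values were seen, were FLNA, TNS4, PLXNA1, NTSR1 and DCBLD2. FLNA, which crosslinks actin filaments and ties integrins to them, was at 1113, 1493 and 1208 CPM in ALDHbr and 2080.0, 1935 and 1986 CPM in ALDHneg libraries. It fell by 0.65 on the log2 scale without overlap (edgeR adjusted p = 0.000671), and the ALDHbr values were closer to the ALDHneg values in the second library. TNS4, a tensin of focal adhesions, fell by 0.61, PLXNA1, a semaphorin receptor, by 0.57, and NTSR1, the neurotensin receptor, by 0.54. FLNA had a log2 fold change of -0.50 under NIF (edgeR adjusted p = 0.00577). PLXNA1 (-0.45, edgeR adjusted p = 0.0116) and NTSR1 (-0.32, 0.00162) also passed the test there, and TNS4 (-0.36, 0.0593) and DCBLD2 (-0.24, 0.149) did not.

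The collagen gene COL13A1, chosen after its values were seen, was at 0.265, 0.471 and 0.654 CPM in ALDHbr and 4.22, 3.83 and 3.68 CPM in ALDHneg libraries. It was on the same side in the NIF libraries (-1.94, edgeR adjusted p = 6.18e-05) and in SUM159 (-2.37, edgeR adjusted p = 1.79e-06), with a log2 fold change of -3.09 in the SW620 DMSO libraries.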
